A study of Mus musculus with 5 samples.

Results

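The 10 genes described here encode proteins that neutrophils store for release. They were found by symbol among the 21755 protein-coding genes of the mouse annotation GENCODE vM21, and all 10 were present. 4 of them are early genes, whose products fill the azurophil (primary) granules: *Mpo*, *Elane*, *Prtn3* and *Ctsg*. The other 6, *Ltf*, *Camp*, *Lcn2*, *Ngp*, *S100a8* and *S100a9*, are later genes. CpG methylation was measured by whole-genome bisulfite sequencing in acute myeloid leukemia (AML) blasts from mouse bone marrow (strain C57BL/6 per the labels), with 1 library per mouse. All 5 libraries were Cebpa-/p30, with one *Cebpa* allele deleted and the other encoding only p30, the short form of the transcription factor CEBPA. 2 libraries were Tet2+/+ (numbers 23 and 24) and 3 were Tet2-/- (numbers 5, 7 and 8), lacking the dioxygenase that oxidises methylated cytosine. Per the methods of the study, donor marrow was transplanted into irradiated adult female recipients of a congenic strain, floxed alleles were deleted by Mx1-Cre after poly(I:C) injection, and donor-derived live cells without T, B or erythroid surface markers were sorted, with no gate on maturation stage. The labels gave no age at sampling.

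Neutrophil granules form in sequence as myeloid precursors mature. At the promyelocyte stage, serine proteases and myeloperoxidase are packed into azurophil granules, and from the myelocyte stage on, lactoferrin, cathelicidin and lipocalin 2 are packed into specific (secondary) granules, while S100A8 and S100A9 collect in the cytosol. CEBPA acts before and CEBPE during the later step. Methylation of CpGs at promoters and enhancers is commonly low where a regulatory element is in use, and TET enzymes act in removing it. A region's level is given below as its methylated calls in percent of all its calls, with both strands of a CpG (a dyad) added.

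The libraries held 63111735 to 110752967 calls, 2.96 to 5.19 per dyad. The level over the whole genome was 67.3% and 62.3% in Tet2+/+ and 70.9%, 74.8% and 68.4% in Tet2-/-, so that a general shift lies under every comparison. Within *Tet2*, a run of 36 dyads (chromosome 3, 133466411 to 133468352, GRCm38) had 128 and 151 calls in the Tet2+/+ libraries and 0 in each Tet2-/- library, as the labels state. Within 100 kb of the 10 genes, coverage relative to the mean of the libraries lay between 0.906 and 1.10, with no library at a lost or doubled copy. The promoters of the myeloid markers *Spi1*, *Itgam*, *Csf3r* and *Cebpe* stood at 2.43% to 41.0%, those of the lymphoid markers *Cd79a*, *Cd3e* and *Cd3g* at 55.4% to 90.6%. Among the myeloid markers, *Cebpe*, the regulator of the later granule genes, was at 2.92% and 2.43% in Tet2+/+ and at 9.58%, 21.5% and 27.0% in Tet2-/-. All Tet2-/- libraries were thus above both Tet2+/+ libraries, as at 32.8% of all promoters. At *Spi1*, *Itgam* and *Csf3r* the groups overlapped. The part of *Cebpe* in the results below was not tested. In sorted bulk cells, a change in the share of a cell type and a change of methylation within cells cannot be told apart. In a supplementary figure, the study reported that donor-derived myeloid marrow cells with and without the granulocytic marker Gr1 differed between the genotypes in moribund mice. The part of that difference in the results below was not tested.

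To see what the starts of these genes look like, the 250 bases before each transcript start in RefSeq (GRCm38.p6) were read. All 10 genes had an entry. The bases of 6 of them that lie outside annotated exons are shown here, 3 early and 3 later, each 5′ to 3′ on the strand of the gene with CpGs in capitals, because few of the calls on these CpGs were methylated.
*Elane*, chr10:79886062-79886246, plus strand: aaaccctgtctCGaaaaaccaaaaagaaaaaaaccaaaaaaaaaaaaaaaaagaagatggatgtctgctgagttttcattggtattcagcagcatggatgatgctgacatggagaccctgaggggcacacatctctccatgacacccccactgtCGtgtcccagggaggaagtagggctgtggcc
*Prtn3*, chr10:79879417-79879613, plus strand: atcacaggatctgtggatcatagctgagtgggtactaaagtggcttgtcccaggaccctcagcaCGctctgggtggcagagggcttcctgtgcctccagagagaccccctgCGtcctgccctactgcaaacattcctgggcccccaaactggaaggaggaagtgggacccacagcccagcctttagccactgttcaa
*Ctsg*, chr14:56102575-56102824, minus strand: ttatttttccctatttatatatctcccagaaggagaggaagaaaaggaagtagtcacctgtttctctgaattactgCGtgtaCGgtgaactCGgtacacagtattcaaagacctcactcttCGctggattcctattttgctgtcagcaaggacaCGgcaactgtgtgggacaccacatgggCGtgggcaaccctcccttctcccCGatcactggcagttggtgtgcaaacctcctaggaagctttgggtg
*Ltf*, chr9:111019042-111019270, plus strand: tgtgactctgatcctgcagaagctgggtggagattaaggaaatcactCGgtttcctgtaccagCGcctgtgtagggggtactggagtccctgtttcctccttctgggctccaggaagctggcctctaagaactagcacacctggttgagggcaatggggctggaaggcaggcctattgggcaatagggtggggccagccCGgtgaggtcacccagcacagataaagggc
*Ngp*, chr9:110419558-110419746, plus strand: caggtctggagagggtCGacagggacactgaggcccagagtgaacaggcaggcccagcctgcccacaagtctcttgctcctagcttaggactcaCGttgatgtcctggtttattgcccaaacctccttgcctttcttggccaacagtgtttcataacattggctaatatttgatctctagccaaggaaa
*S100a9*, chr3:90695722-90695971, minus strand: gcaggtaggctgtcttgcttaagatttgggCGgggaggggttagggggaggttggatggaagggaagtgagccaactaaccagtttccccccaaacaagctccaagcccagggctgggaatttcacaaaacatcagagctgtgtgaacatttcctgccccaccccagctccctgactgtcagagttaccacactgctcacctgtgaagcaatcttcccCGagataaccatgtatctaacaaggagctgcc

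These stretches are poor in CpGs. The full 250 bases held between 2 CpGs (*Mpo*, *Camp*, *S100a8* and *S100a9*) and 7 CpGs (*Ctsg*). With the 5 libraries added, 32 to 343 calls fell on them, and the level was at most 9.20% at any of the 10 genes. Among the early genes it was 4% at *Mpo*, 3.85% at *Elane*, which encodes neutrophil elastase, 3% at *Prtn3*, which encodes proteinase 3, and 2.62% at *Ctsg*, which encodes cathepsin G. Among the later genes it was 2.38% at *Ltf* (lactoferrin), 2.70% at *Camp* (the cathelicidin precursor), 9.20% at *Lcn2* (lipocalin 2), 8.62% at *Ngp* (neutrophilic granule protein) and 2.70% at *S100a9*. At *S100a8*, 0 of 32 calls were methylated, which allows a level of up to 9.38% when a count of 0 is taken to allow 3 calls. Single libraries, with few calls each, reached 21.1% (*Ngp* in library 8, from 19 calls). The pooled levels of all 10 members were thus at or below 10%, a limit set after the values were seen, beside 24.4% of the 4081 protein-coding genes with 2 to 7 CpGs in that stretch and at least 20 calls. The upper 95% Wilson bounds of the members ran from 4.91% (*Ctsg*) to 17.1% (*Lcn2*) and were above 10% at all but *Prtn3*, *Ctsg* and *Ltf*. The median over the 4071 of these that are not members was 54.4% (quartiles 11.4% and 82.0%). By genotype, 14 of 353 calls (3.97%) were methylated over the 10 stretches in Tet2+/+ and 26 of 653 (3.98%) in Tet2-/-. The classes went opposite ways, at 3.72% and 2.53% for early and 4.35% and 5.72% for later genes. *Ctsg* alone held 343 of the 1006 calls, and a difference by genotype in these stretches was not tested. The same 250 bases with 50 bases after the start were searched on both strands for 4 letter motifs. The core of a C/EBP site, TTGCNNAA, was found in 4 members, all of them later genes (*Ltf*, *Lcn2*, *Ngp* and *S100a9*), and in 10.8% of 26794 promoters. GAGGAAG, letters that PU.1 sites often hold, was found in 6 members, namely the 4 early genes, *Lcn2* and *S100a8*, and in 13.3% of promoters. CCAAT was found in 3 members and 38.1% of promoters, and GATAA in 2 members and 25.9%. A match is a description of letters and no evidence of binding.

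Away from the start the pooled levels of the 2 classes parted, but single genes did not all follow their class. From 250 to 500 bases upstream, the pooled level was 18.8% over the early genes and 56.2% over the later genes, and from 500 to 1000 bases downstream it was 23.2% and 78.2%. In the upstream bin the later value came mostly from *Ngp* (64.1%) and *Ltf* (90.2%), while *S100a9* (19.0%) and *Camp* (26.9%) were low and *Lcn2* and *S100a8* had no CpG, and of the early genes *Elane* was at 60%. In the downstream bin *Elane* was at 55.5% and *S100a9* at 30.8%, and *Ngp* had no CpG. Right at the start, in the 250 bases upstream, it was 2.98% and 5.29%, and the single libraries lay between 1.20% and 5.13% for early and between 2.90% and 8.24% for later genes. The low stretch of the later genes ended soon after the start, since their first 250 bases downstream were already at 33.6%, against 4.74% at the early genes. Single later genes differed there, from 2.46% at *S100a8* (244 calls) to 75.4% at *Ngp* (118 calls) and 80% at *Ltf*, where only 15 calls fell.

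**Figure D1:**
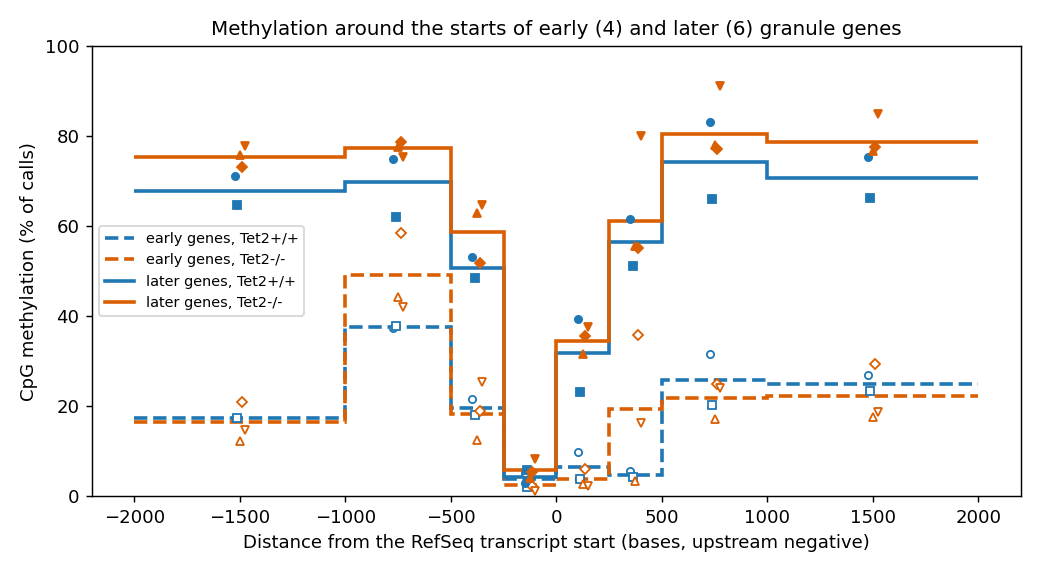
CpG methylation (percent of calls) by distance from the RefSeq transcript start for the 4 early genes (dashed lines, open symbols) and the 6 later genes (solid lines, filled symbols). Lines are the pooled calls of Tet2+/+ (blue) and Tet2-/- (orange), and symbols are single libraries with the calls of a class added. Both classes drop below 10% in the 250 bases before the start, and later genes stand above early genes in all other bins.

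Over the wider promoter window, 1000 bases to either side of where the gene record begins, later genes were more methylated than early genes in every library. Averaged over the 4 early genes, Tet2+/+ library 23 stood at 18.9% and library 24 at 13.2%, while Tet2-/- libraries 5, 7 and 8 stood at 13.2%, 18.2% and 15.3%. For the 6 later genes it was 53.5% and 42.0%, then 51.3%, 49.2% and 57.4%. The later-minus-early difference was 31.7 points ± 4.13 (SD, n = 2) in Tet2+/+ and 37.1 points ± 5.65 (SD, n = 3) in Tet2-/-, so that the genotypes overlapped. It is a description, since genes are not replicates. Within the 250 bases before the start the mean difference of the 5 libraries was 0.369 points, and the single libraries lay on both sides of 0, between -5.42 and 4.86 points, from 2 to 95 calls per gene and library.

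*Prtn3* stood lowest of all, at 1.32% on average over the 5 libraries, but its gene record starts with a non-coding transcript inside *Plppr3*, in a CpG-rich stretch of 95 dyads. Around its RefSeq start (27 dyads) the level was 8.55% and 7.38% in Tet2+/+ and 3.78%, 20.8% and 11.6% in Tet2-/-, with groups that overlapped (adjusted p = 0.720). *Ctsg* followed at 5.55% ± 1.74 (SD, n = 5) and *Mpo* at 10.7% ± 3.33 (SD, n = 5). The genes of the alarmins, *S100a8* and *S100a9*, stood at 23.3% ± 6.50 and 36.3% ± 12.9 (SD, n = 5), *Elane* at 45.5% ± 8.57 (SD, n = 5), and *Lcn2*, *Ngp*, *Ltf* and *Camp* between 55.8% and 67.2%. From *Mpo* upward, neighbours in this order overlapped in their library values. *Elane* was the early gene that lay among the later ones, although its own start was as low as the rest. The windows of the 9 members other than *Prtn3* held 9 to 34 dyads, fewer than the median of 70 over all promoters, and the median level of the 5002 promoters with that many dyads was 69.9%.

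To ask whether loss of TET2 changed these promoters, methylated and unmethylated counts were compared between genotypes in edgeR, fitted over all promoters. None of the 10 members passed an adjusted p of 0.05 in edgeR's quasi-likelihood test (Benjamini-Hochberg over 19455 promoters), where 1.07% of all promoters did. In limma none passed either, beside 0.930% of all promoters. No member had an unadjusted edgeR p under 0.05, beside 3522 of the 19455 promoters. *Prtn3* came closest, with an adjusted p of 0.370. Of the members, 7 of 10 had a higher mean in Tet2-/-, and the median difference was 1.76 points, against 2.22 points over all promoters. The set of all promoters was not matched to the members in number of dyads or in level. The groups did not overlap at 1 member, *Prtn3* (0.790% against 1.67%), as at 32.8% of all promoters, and no member was lower in all Tet2-/- libraries, as 4.05% of promoters were. *Mpo* was at 16.2% and 8.75% in Tet2+/+ and 10.9%, 10.4% and 7.46% in Tet2-/-. With the window placed around its RefSeq start, all Tet2-/- libraries of *Mpo* were below both Tet2+/+ libraries, at 6.32%, 4.04% and 4.76% against 12.5% and 6.41% (edgeR adjusted p = 0.512). The groups barely parted, with 6 of 95 calls methylated in Tet2-/- library 5 and 5 of 78 in Tet2+/+ library 24. The share of all RefSeq windows with Tet2-/- lower was not counted. *Camp* was at 72.4% and 51.6% in Tet2+/+ and 69.8%, 66.3% and 75.9% in Tet2-/-, where the spread between the Tet2+/+ libraries exceeded the difference of 8.65 points. The windows held 32 to 624 calls per library, so that 95% Wilson intervals were up to 32.7 points wide. These intervals cover counting error only. At this depth small differences at a promoter were not detectable, and 2 libraries against 3 allow no exact permutation p below 0.1.

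**Figure D2:**
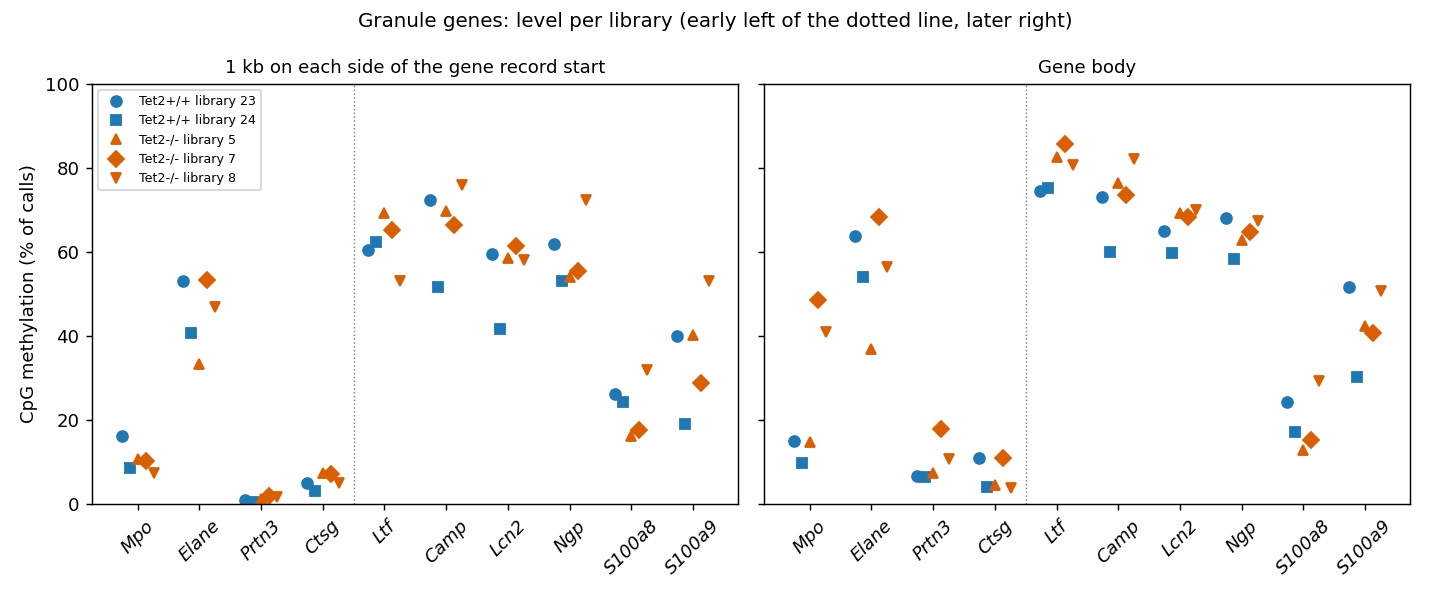
Methylation level (percent of calls) of each member in each library, around the start of the gene record (left) and over the gene body (right), with early genes left of the dotted line. Blue symbols are Tet2+/+ and orange symbols Tet2-/-. In the bodies, *Mpo* splits into libraries 7 and 8 of Tet2-/- at 48.5% and 40.9% and the 3 other libraries at 9.74% to 15.0%.

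Over gene bodies, 3 of the 10 members rose in Tet2-/- (adjusted p below 0.05 in edgeR), namely *Mpo*, *Prtn3* and *Ltf*, and none fell, where 15.5% of 20715 bodies were called. The median difference of the members was 4.67 points and that of all bodies 4.95 points. The groups did not overlap with Tet2-/- higher at 4 members (*Prtn3*, *Ltf*, *Camp* and *Lcn2*), as at 46.0% of all bodies, and with Tet2-/- lower at none, as at 1.46%. With limma, 0 of the 10 bodies were called, beside 2.34% of all bodies. Averaged over genes, early bodies were again below later ones, at 21.3% against 54.8% in Tet2+/+ and 26.8% against 59.7% in Tet2-/-. Single genes did not all follow their class. Over the 5 libraries, the *Elane* body (55.8%) was above those of *S100a9* (43.2%) and *S100a8* (19.8%), and the *Mpo* body (25.8%) was above that of *S100a8*.

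*Mpo*, which encodes the myeloperoxidase of azurophil granules, had the largest difference of the 10 bodies. Its body (chromosome 11, 87793581 to 87804413, 175 dyads) had a level of 15.0% in Tet2+/+ library 23, 9.74% in library 24, and 14.7%, 48.5% and 40.9% in Tet2-/- libraries 5, 7 and 8. The Tet2-/- mean of 34.7% ± 17.7 (SD, n = 3) exceeded the Tet2+/+ mean of 12.3% ± 3.69 (SD, n = 2) by 22.3 points (edgeR adjusted p = 4.15e-06). Tet2-/- library 5 lay within the range of Tet2+/+, so that the groups overlapped and the difference lay in libraries 7 and 8. With limma the adjusted p was 0.0877. Without Tet2+/+ library 24 the edgeR adjusted p was 0.210.

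In 1 kb windows along the gene, the difference lay past its first 4 kb. The 5 windows tested from the start to about 4 kb inside the gene were at or below 14.3% in every library. The next tested window (87799001 to 87800000, 11 dyads) was at 12.1% and 5.88% in Tet2+/+ and at 17.6%, 41.6% and 39.4% in Tet2-/-. It did not pass (edgeR adjusted p = 0.0679). Further on, 2 windows near the 3′ end rose and were called. The first (87801001 to 87802000, 29 dyads, 42.7% of it in annotated exons) was at 11.2% and 5.71% in Tet2+/+ and at 14.7%, 75.7% and 73.5% in Tet2-/- (adjusted p = 0.00285). The next (87802001 to 87803000, 31 dyads) was at 14.4% and 2.67% in Tet2+/+ and at 18.9%, 85.9% and 83.3% in Tet2-/- (adjusted p = 0.000703). Split at the first of these windows, a split chosen after the values were seen, the 5′ part of *Mpo* (92 dyads) was at 6.89% to 12.3% in all 5 libraries. Libraries 7 and 8 were the highest there too, and the window at 87799001 to 87800000 lies in this part. The 3′ part (83 dyads) was at 22.5% and 10.8% in Tet2+/+, at 22.3% in Tet2-/- library 5, and at 81.9% and 79.6% in Tet2-/- libraries 7 and 8. Libraries 7 and 8 were thus close to each other, and library 5 lay beside the Tet2+/+ libraries.

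The 300 bases of the second window with the most CpGs (15) are shown because they carry this split. They read, on the plus strand of GRCm38 and with CpGs in capitals, with 222 of the bases in the coding sequence and the rest in the intron after it:
*Mpo*, chr11:87802528-87802827, plus strand: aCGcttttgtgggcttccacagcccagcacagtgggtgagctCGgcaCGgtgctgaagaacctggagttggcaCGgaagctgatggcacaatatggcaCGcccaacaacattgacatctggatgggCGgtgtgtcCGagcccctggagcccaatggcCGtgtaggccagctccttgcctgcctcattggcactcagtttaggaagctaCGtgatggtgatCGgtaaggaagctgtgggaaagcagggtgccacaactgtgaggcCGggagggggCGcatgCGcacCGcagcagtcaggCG
On these 15 dyads the level was 7.58% and 2.59% in Tet2+/+ and 17.2%, 87.9% and 88.5% in Tet2-/-, from 52 to 124 calls per library.

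**Figure D3:**
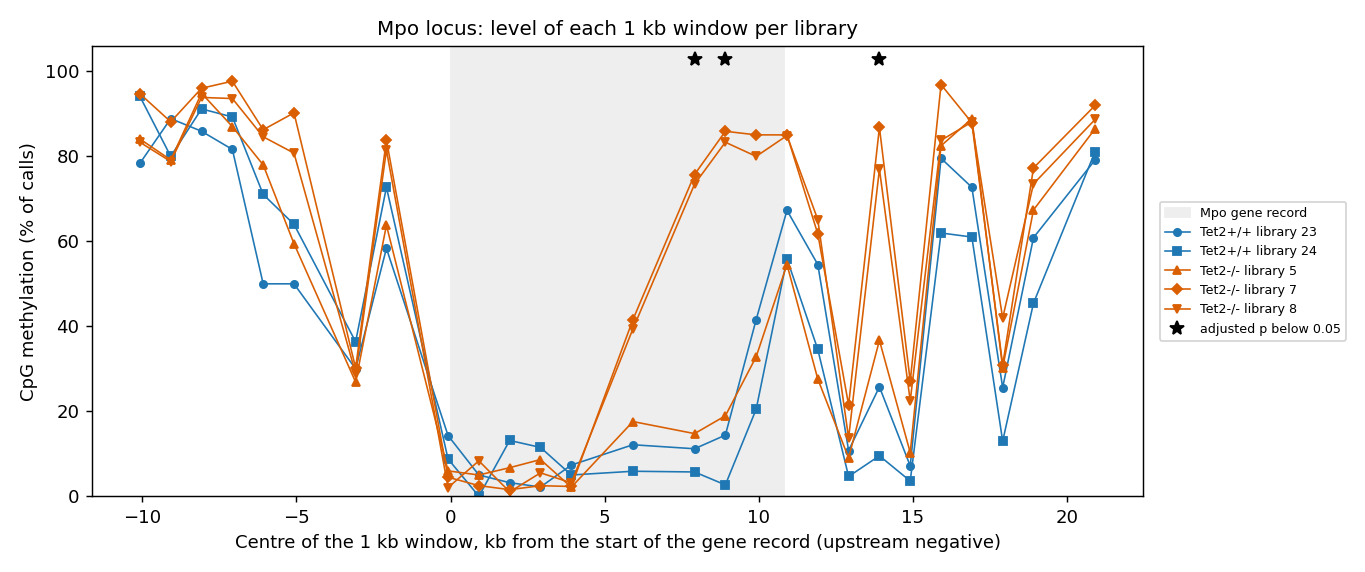
Methylation level (percent of calls) of the 1 kb windows with at least 20 calls in every library, from 10 kb before to 10 kb after *Mpo*, against the distance of the window's centre from the start of the gene record (kb). Blue lines are Tet2+/+ and orange lines Tet2-/-, the grey area is the gene record and stars mark windows with an adjusted p below 0.05. All libraries are low over the first 4 kb of the gene, after which Tet2-/- libraries 7 and 8 rise to between 73.5% and 85.9% in the 2 called windows of the gene while library 5 stays at 14.7% and 18.9%.

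The same 2 libraries stood apart beyond the gene. The 10 kb downstream of *Mpo*, which reach into *Lpo*, the gene of lactoperoxidase, were at 45.8% and 34.1% in Tet2+/+ and at 46.9%, 66.6% and 63.5% in Tet2-/- (difference 19.0 points, edgeR adjusted p = 0.00890, lost without Tet2+/+ library 24 at 0.564 or Tet2-/- library 8 at 0.0614). Within it, one window in *Lpo* (87807001 to 87808000) was called, at 25.7% and 9.52% in Tet2+/+ and 36.7%, 86.8% and 77.01% in Tet2-/- (adjusted p = 0.00295). The 10 kb upstream of *Mpo* were at 57.8% and 63.2% in Tet2+/+ and at 59.5%, 69.5% and 64.4% in Tet2-/-, and did not pass (adjusted p = 0.600).

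*Prtn3* and *Elane* lie next to each other on chromosome 10, so that their regions are not independent. 133 dyads of the *Prtn3* body, 71.1% of it, are also 74.3% of the upstream flank of *Elane*. The *Prtn3* body was at 6.63% and 6.41% in Tet2+/+ and at 7.52%, 17.98% and 10.8% in Tet2-/- (difference 5.60 points, adjusted p = 0.0170), and library 7 was the highest. The upstream flank of *Elane* was at 8.63% and 7.51% against 8.97%, 20.1% and 13.8% (adjusted p = 0.0310), the same dyads for the most part. Without Tet2-/- library 7, these had adjusted p-values of 0.283 and 0.244. Both calls were also lost without Tet2+/+ library 23 (0.107 and 0.0808) or 24 (0.408 and 0.453), and that of the *Prtn3* body with thinned calls (0.0693) or without the promoter window (0.104). The *Elane* body was not higher in Tet2-/- as a group, at 63.7% and 54.0% in Tet2+/+ and 36.9%, 68.2% and 56.4% in Tet2-/- (adjusted p = 0.670), where Tet2-/- library 5 was the lowest and library 7 the highest of all. *Ctsg*, the remaining early protease, was low over its whole body in all libraries, at 10.95% and 4.21% in Tet2+/+ and 4.69%, 11.01% and 3.85% in Tet2-/-. Its difference was -1.06 points (adjusted p = 0.818).

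Of the later genes, *Ltf* was called in its body and its upstream flank. Its body (chromosome 9, 111019271 to 111042767, 298 dyads) was at 74.5% and 75.2% in Tet2+/+ and at 82.5%, 85.7% and 80.7% in Tet2-/-, a difference of 8.16 points (edgeR adjusted p = 0.0235) with groups that did not overlap. Its upstream flank was at 62.9% and 60% in Tet2+/+ and at 75.9%, 83.7% and 76.5% in Tet2-/-, a difference of 17.2 points (adjusted p = 0.0121). Both calls were lost with either Tet2+/+ library left out, with adjusted p-values of 0.103 (without 23) and 0.293 (without 24) for the body and 0.0567 and 0.314 for the flank. The body call was also lost without Tet2-/- library 5 (0.0911) or 7 (0.0925), and limma did not call the body.

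The flank held the window with the lowest p of the 184 windows tested at the 10 loci, 7.77 kb before the start of *Ltf* (111011001 to 111012000, 10 dyads, in no annotated gene). It was at 30.8% and 38.6% in Tet2+/+ and at 83.9%, 91.7% and 91.7% in Tet2-/-, a difference of 54.4 points (edgeR adjusted p = 0.000262). All 3 Tet2-/- libraries were high here, unlike at *Mpo*. It was also the 1 window still called under limma after each library's median was subtracted (adjusted p = 0.00960) and without Tet2+/+ library 24. A second window (111028001 to 111029000, 23 dyads), 9.23 kb inside the gene and 4.90% exonic, was at 60.2% and 56.9% in Tet2+/+ and at 90.6%, 97.6% and 84.9% in Tet2-/- (adjusted p = 0.00488). The window at the start of *Ltf* did not move with genotype, at 27.3% and 44.8% in Tet2+/+ and 39.6%, 25.5% and 25% in Tet2-/- (adjusted p = 0.834). The 300 bases of the upstream window with the most CpGs (8) are shown, since they lie in the window with the lowest p, on the plus strand with CpGs in capitals:
*Ltf*, chr9:111011615-111011914, plus strand: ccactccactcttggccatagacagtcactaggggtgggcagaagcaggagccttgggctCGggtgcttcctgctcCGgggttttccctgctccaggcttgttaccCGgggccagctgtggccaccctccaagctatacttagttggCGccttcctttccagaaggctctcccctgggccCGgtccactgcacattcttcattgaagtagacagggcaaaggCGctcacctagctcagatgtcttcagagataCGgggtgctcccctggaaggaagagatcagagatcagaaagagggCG
On these dyads the level was 23.7% and 38.5% in Tet2+/+ and 84.8%, 90.5% and 92.1% in Tet2-/-, from 38 to 63 calls per library.

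**Figure D4:**
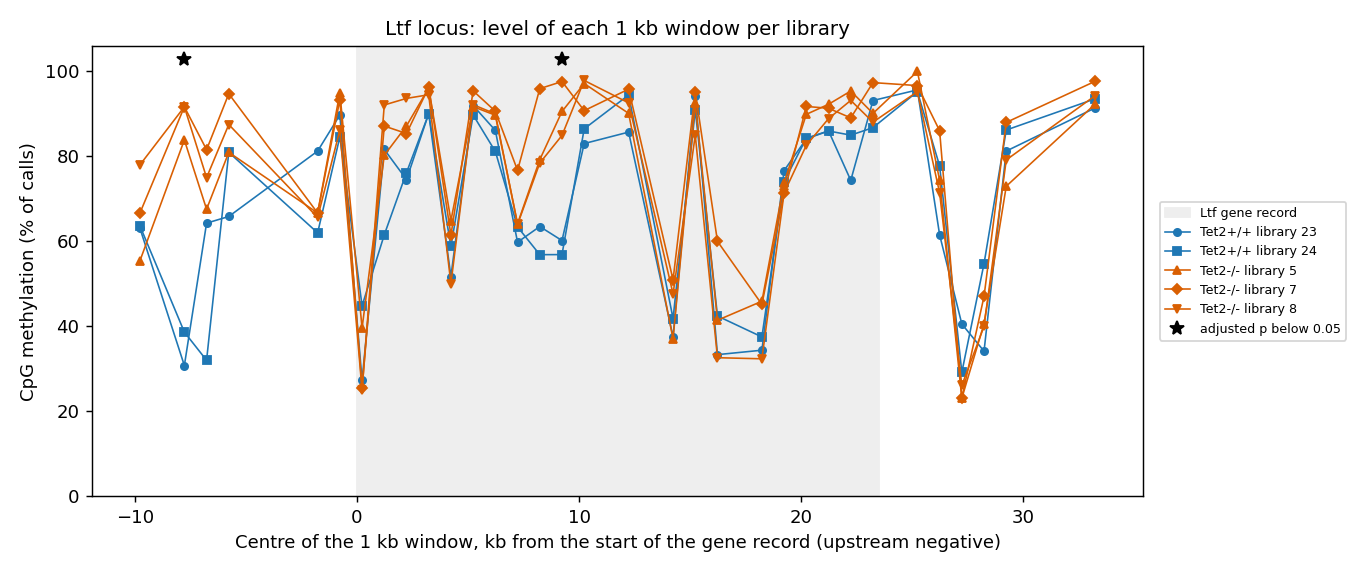
Methylation level (percent of calls) of the 1 kb windows with at least 20 calls in every library, from 10 kb before to 10 kb after *Ltf*, against the distance of the window's centre from the start of the gene record (kb), with symbols, shading and stars as for *Mpo*. Most of the locus runs together in all libraries. At 7.77 kb upstream the 3 Tet2-/- libraries lie at 83.9% to 91.7% and the 2 Tet2+/+ libraries at 30.8% and 38.6%, and at 9.23 kb inside the gene the groups part again.

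Of the other later genes, *Ngp* was called in its downstream flank, which runs into *Klhl18*, at 85.6% and 84.7% in Tet2+/+ and 90.0%, 94.8% and 92.2% in Tet2-/- (difference 7.19 points, edgeR adjusted p = 0.00519, limma adjusted p = 0.132). Its body was at 68.0% and 58.2% in Tet2+/+ and 62.8%, 64.7% and 67.4% in Tet2-/- (adjusted p = 0.884). The upstream flank of *S100a8* had a difference of 17.5 points, larger than that of *Ltf*, at 37.9% and 36.2% in Tet2+/+ and 48.0%, 62.6% and 53.1% in Tet2-/-. It held only 33 dyads and did not pass (edgeR adjusted p = 0.0884, limma adjusted p = 0.0269). *S100a8* itself was at 24.4% and 17.2% in Tet2+/+ and 12.9%, 15.3% and 29.2% in Tet2-/-, and *S100a9* at 51.7% and 30.2% in Tet2+/+ and 42.5%, 40.8% and 50.7% in Tet2-/-, with overlapping groups at both. All 17 dyads of the *S100a8* body also lie in its promoter window, so that these are not 2 separate readings. *Camp* and *Lcn2* had groups that did not overlap in their bodies, at 73.1% and 59.9% against 76.3%, 73.5% and 82.1% for *Camp* and at 65.1% and 59.8% against 69.3%, 68.4% and 70.1% for *Lcn2*, but neither passed (adjusted p = 0.196 and 0.507).

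Counted over all members, upstream flanks of 3 of 10 were called (*Elane*, *Prtn3* and *Ltf*), where 13.1% of 21311 flanks were, and downstream flanks of 2 of 10 (*Mpo* and *Ngp*), where 16.4% of 21328 were, all of them higher in Tet2-/-. With limma the upstream flanks of *Elane* and *Prtn3* were not called (adjusted p = 0.0771 and 0.1055), while that of *Ltf* was (0.04455). Limma called 5.99% of all upstream and 11.5% of all downstream flanks. The *Prtn3* upstream call was also lost without Tet2+/+ library 24 (0.513) or Tet2-/- library 7 (0.155). The groups did not overlap with Tet2-/- higher at 6 upstream and 5 downstream flanks, beside 44.7% and 52.7% of all genes, and with Tet2-/- lower at none, beside 1.69% and 0.881%. The median difference of the members was 7.44 points upstream (5.65 over all genes) and 5.97 points downstream (6.44). Of the 184 windows, 6 were called and all were higher in Tet2-/-, beside 2.29% of 1047054 windows. 3 were at *Mpo*, 2 at *Ltf* and 1 lay 1.98 kb before the *Prtn3* record, inside *Plppr3* (79872001 to 79873000 on chromosome 10), at 63.9% and 50% in Tet2+/+ and 77.8%, 97.2% and 82.4% in Tet2-/- (adjusted p = 0.0370). The loci of *Elane*, *Ctsg*, *Camp*, *Lcn2*, *Ngp*, *S100a8* and *S100a9* had no called window of their own.

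**Figure D5:**
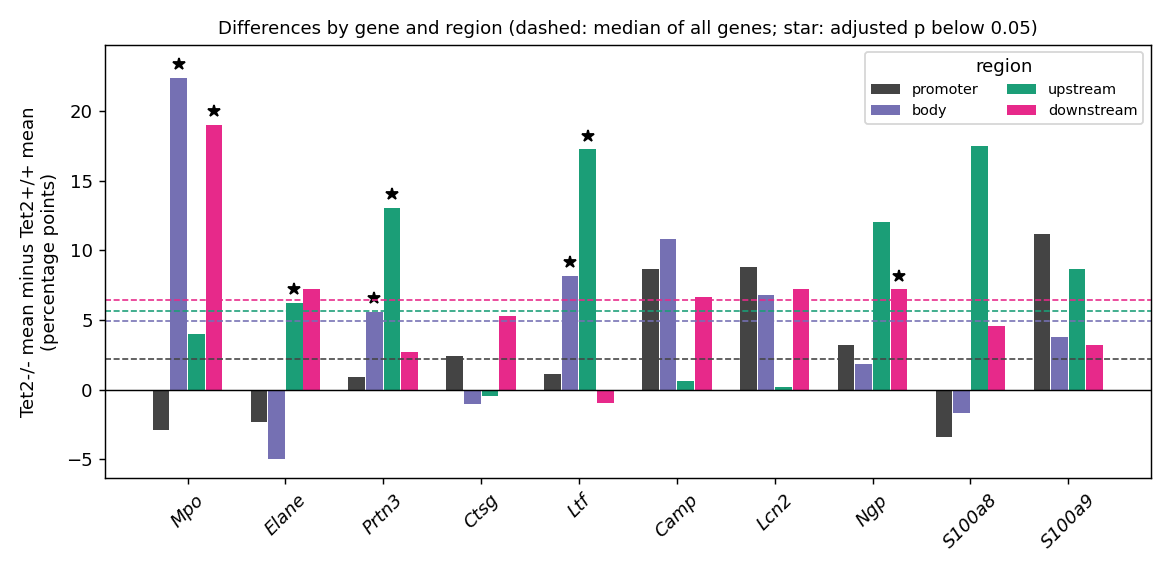
Difference between the mean levels of Tet2-/- and Tet2+/+ (percentage points) for each member in its promoter, body and 10 kb flanks, with the median over all genes of each kind as a dashed line and stars for an adjusted p below 0.05. The tallest bars are the body of *Mpo* at 22.3 points and its downstream flank at 19.0 points, and the upstream bars run from -0.44 points at *Ctsg* to 17.5 points at *S100a8* around a line at 5.65 points.

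A list of 18 further neutrophil granule genes was read in the same way. Of these, 16 had a promoter with enough calls, and none was called, where 1.07% of all promoters were. Their median difference was 5.41 points, against 2.22 points over all promoters, a set not matched to them in number of dyads or in level. Of their 18 bodies, 4 rose and none fell, where 15.5% of all bodies were called, and the median difference was 4.78 points, against 4.95 points over all bodies. *Mmp8*, the neutrophil collagenase of specific granules, was at 43.6% and 31.5% in Tet2+/+ and 61.5%, 70.1% and 65.3% in Tet2-/- (difference 28.0 points, adjusted p = 0.000677). *Mmp9*, the gelatinase, was at 30.2% and 25.3% in Tet2+/+ and 47.9%, 41.6% and 46.1% in Tet2-/- (difference 17.5 points, adjusted p = 0.000307). *Hp*, which encodes haptoglobin, differed by 20.05 points (limma adjusted p = 0.0840) and *Prss57*, an azurophil serine protease, by 19.5 points. By class, called bodies were 1 of 5 azurophil, 2 of 8 specific and 1 of 5 gelatinase and other genes.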

How the data were processed

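Genomic DNA of sorted blasts was bisulfite converted and libraries were made by random priming. Per the labels and methods, the authors trimmed reads with Trim Galore 0.4.3, aligned them to GRCm38 (mm10) with Bismark 0.19.1 and Bowtie2, and removed duplicates. The deposited values are raw counts of methylated and unmethylated calls per CpG cytosine, not normalised.

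Counts of both strands were added per dyad and summed over each gene's start ± 1000 bp, its body, 10 kb flanks, and 1 kb windows (autosomes and X), for regions with at least 20 calls in every library. Mean depth was 2.96 to 5.19 calls per dyad, so that regions and not single CpGs were compared. Genotypes (from titles) were compared with edgeR 4.0.16 (R 4.3.3): both counts entered as columns, with a coefficient per library, trended dispersion and the quasi-likelihood test, adjusted by Benjamini-Hochberg over all regions of a kind and called at 0.05. Limma 3.58.1, on log2((methylated + 2)/(unmethylated + 2)), was an alternative, also after the median of a library had been subtracted from its values. The scripts were tested on simulated data. Named were all 10 members, every called window of their loci, and called genes among 18 further granule genes. Members and lists were chosen with earlier results of these data known. The RefSeq start, the 250-base stretch and the omission of *Elane* were added after the data were seen. Sequences came from RefSeq (GRCm38.p6). Libraries were sequenced in pairs, but which of them shared a run is not given in the sources used here, so that no batch was fitted. One marker of the preset list is not reported here. Intervals were Wilson intervals computed with scipy 1.17.1 in Python 3.11.15.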

Additional observations from a re-analysis of the deposited data

How the results depend on the processing

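The number of members called rested on the test and on Tet2+/+ library 24, the library with the lowest level over the genome. Of the 3 called bodies, limma kept 0, limma after median subtraction 0 and the bodies without the promoter window 1 (of 9 tested). Of all bodies, these settings called 2.34%, 0.0290% and 10.3%. Leaving out 1 library gave 0 to 3 called bodies, 0 to 3 upstream flanks, 0 to 3 downstream flanks and 1 to 9 windows. Beside these, 0.424% to 16.1% of all bodies and 0.161% to 2.11% of all windows were called. For all upstream and downstream flanks the shares were 0.0844% to 16.5% and 0.778% to 13.4%. The lowest counts of members came without Tet2+/+ library 24. Without that library calls fell over the whole genome too, to 0.424% of bodies, 0.0844% of upstream and 0.778% of downstream flanks and 0.161% of windows, and of the called regions of members and further granule genes only the window upstream of *Ltf* kept its call. After median subtraction limma called 0 upstream flanks, 0 downstream flanks and 1 window (that upstream of *Ltf*), beside 0.00938%, 0.445% and 0.340% of all. Limma without subtraction called 2 upstream flanks (*Ltf* and *S100a8*, not *Elane* and *Prtn3*) and 1 downstream flank (*Mpo*, not *Ngp*). No setting called the promoter of a member. Of all promoters, the settings called between 0.00% (without Tet2+/+ library 24) and 4.70% (likelihood ratio test). The later-minus-early difference was 34.9 points at promoters and 33.1 over bodies. It was 41.9 and 52.9 with pooled calls, 44.8 and 43.6 without *Elane*, and 0.369 in the 250 bases before the RefSeq start. Other minimums of calls and the likelihood ratio test changed no call and no direction at the named genes, and thinning lost 1 call. No paired analysis was possible because the groups share no replicate number.

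Directions that turned were of regions that did not pass. After median subtraction, limma gave log2 differences below 0, relative to the median region, at the promoters of *Ltf* (-0.36) and *Ngp* (-0.25), the bodies of *Ngp* (-0.31) and *S100a9* (-0.19) and the upstream flanks of *Mpo* (-0.17), *Camp* (-0.37) and *Lcn2* (-0.41). The same held for the downstream flanks of *Elane* (-0.14), *Prtn3* (-0.46), *Ctsg* (-0.28), *Lcn2* (-0.19), *S100a8* (-0.33) and *S100a9* (-0.39). Thinning gave 0.259 points for the *Ctsg* body and 0.293, -0.417 and -0.0323 points for the upstream flanks of *Ctsg*, *Camp* and *Lcn2*. With dyads called in all 5 libraries the *Camp* flank was at -0.717 points, and a promoter of 500 bp on each side gave 3.002 points at *S100a8*. With 1 library left out, promoter differences ran from -6.60 to 0.827 points (*Mpo*), -8.55 to 3.91 (*Elane*), -2.24 to 5.86 (*Ltf*), -1.75 to 19.1 (*Camp*), -0.237 to 17.8 (*Lcn2*) and -2.67 to 7.66 (*Ngp*). Body differences ran from -12.1 to 3.51 points (*Elane*), -4.44 to 2.31 (*Ctsg*), -3.03 to 6.73 (*Ngp*), -6.72 to 1.94 (*S100a8*) and -6.99 to 14.5 (*S100a9*). Upstream flanks ran from -2.80 to 2.99 (*Ctsg*), -0.330 to 1.59 (*Camp*) and -0.997 to 1.35 (*Lcn2*), and downstream flanks from -0.547 to 5.97 (*Prtn3*), -2.40 to 12.997 (*Ctsg*) and -2.20 to 0.243 (*Ltf*). The cause was not tested.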
